A study of Mus musculus with 24 samples.

Results

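The 10 genes described here encode enzymes that make or remove amyloid-β peptide: Bace1, Bace2, Adam10, Ncstn, Aph1a, Aph1b, Psen2, Psenen, Ide and Mme. They were taken by name from a table of 55291 gene rows, and all 10 were present and passed the filter on low counts, so each was tested among 17693 genes for expression and among 18300 genes for m6A immunoprecipitation. Hippocampal poly(A) RNA came from 12 mice, 4 in each of 3 groups: untreated wild-type, vehicle-dosed 5xFAD, and 5xFAD that received MS1262, named in the series title as a G9a inhibitor able to enter the brain. 5xFAD mice carry human transgenes of the amyloid precursor protein and a presenilin with familial Alzheimer's disease mutations, driven by the neuronal Thy1 promoter, and they develop amyloid plaques. The labels call the wild-type mice age matched and give no age, sex, dose or dosing time. Because the wild-type mice were not given vehicle, genotype and dosing cannot be told apart against them. Every animal gave an input library, which measures expression, and an immunoprecipitate (IP) enriched for RNA that carries m6A, N6-methyladenosine, an abundant internal modification of messenger RNA.

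Amyloid-β is cut from the amyloid precursor protein in steps. β-Secretase, encoded by Bace1, makes the first cut on the amyloid-forming route, whereas the α-secretase Adam10 cuts inside the peptide and so prevents its formation; Bace2 is a close relative of Bace1 that is scarce in neurons. γ-Secretase then cuts within the membrane. It is a complex of a catalytic presenilin (Psen2 encodes a presenilin), the substrate-binding subunit nicastrin (Ncstn), a scaffold of the APH-1 family (Aph1a or Aph1b) and PEN-2 (Psenen). Ide encodes insulin-degrading enzyme and Mme encodes neprilysin, both of them peptidases that break amyloid-β down in brain.

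The input libraries held 20692600 to 43150100 counts and the IP libraries 3984480 to 48597700. The smallest was the IP of vehicle animal 4, and the next held 10645900. Vehicle animal 3 stood apart in its input by its level of the choroid plexus gene Ttr, 7032 CPM (counts scaled to library size) against 31.7 to 730.3 in the other animals, and by 33 counts of the X-inactivation RNA Xist, against 771 to 2006, with 0 counts of Y-linked genes. Summed input CPM of 10 neuron markers was 11148 to 12571 in wild-type mice, 10149 to 12362 in vehicle and 11476 to 12317 in MS1262 mice, with none of the markers at 0, so neuronal RNA was present in each sample and the groups overlapped. The 10 microglia markers summed to 329 to 365, 374 to 767 and 520.0 to 631 CPM in the same order, higher in all 8 5xFAD than in all 4 wild-type animals. The 10 inhibitory neuron markers summed to 852 to 933, 741 to 835 and 741 to 843 CPM, lower in all 8 5xFAD animals. Taken singly, edgeR called 1 of the 10 lower in vehicle and 2 lower in MS1262 against wild-type. Their median log2 differences were only −0.07 and −0.10, so the lower sum does not hold for most of these markers. In bulk tissue, a change in the number of cells of a type and a change in RNA per cell cannot be told apart.

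Levels of different genes can be compared only per transcript length, as TPM, which scales estimated transcripts by length and library size. In the input, Psenen was the most abundant member, with a median of 247 TPM over 12 libraries (range 201 to 292), and it exceeded the next gene in 12 of 12 libraries. Adam10 (median 23.8 TPM, range 19.8 to 26.6), Ncstn (21.9, 18.8 to 27.5) and Bace1 (20.1, 15.3 to 25.1) followed at overlapping levels: Adam10 exceeded Ncstn in 8 and Ncstn exceeded Bace1 in 9 of 12 libraries. Aph1b had a median of 11.6 TPM (9.49 to 14.6) and Ide 9.41 TPM (7.45 to 11.8), each above the next gene in 12 of 12 libraries. Psen2 had 3.76 TPM (2.48 to 6.08). The scarce members were Mme at 1.38 TPM (0.304 to 2.48), Aph1a at 0.996 (0.798 to 1.51) and Bace2 at 0.766 (0.218 to 3.68), whose ranges overlapped.

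Among the paired functions, the deposited estimates put Bace1 far above its relative Bace2 and Aph1b far above Aph1a. The TPM ratio of Bace1 to Bace2 in the input was 53.1 ± 29.2 in wild-type mice, 40.1 ± 22.1 in vehicle and 17.3 ± 11.4 in MS1262 mice (SD, n = 4). The effective transcript length, read from the ratio of count to TPM, differed by up to 8.64-fold between input libraries for Bace2, against 1.15-fold for Bace1 and 1.04-fold for Adam10. It differed by 2.08-fold for Mme, 1.33-fold for Psen2, 1.31-fold for Aph1a and 1.28-fold for Psenen. For Ide, Ncstn and Aph1b it differed by 1.07-fold, 1.06-fold and 1.03-fold. Bace1 to Adam10, the β-secretase to α-secretase pair, had a ratio of 0.754 ± 0.0965 in wild-type mice, 0.913 ± 0.114 in vehicle and 0.912 ± 0.110 in MS1262 mice. Aph1a stood at 0.0752 ± 0.0111, 0.114 ± 0.0205 and 0.0946 ± 0.0244 of Aph1b. Aph1b and its neighbour Aph1c are nearly identical copies whose older names cross in the annotation (each lists the other as a synonym), so how their reads were divided is uncertain. Aph1c had a median of 2.60 TPM in the input (1.51 to 4.79). Estimated counts of Aph1a were not whole numbers either, at 48.415 to 98.826 in wild-type inputs. Whether part of its reads was assigned to another gene was not tested, so its low level is uncertain too. In the IP libraries the order of the leading genes changed: Psenen stayed first at a median of 182 TPM, and Ncstn at 56.5 and Bace1 at 28.9 each exceeded the next gene in 12 of 12 libraries, with Adam10 at 24.1.

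**Figure D1:**
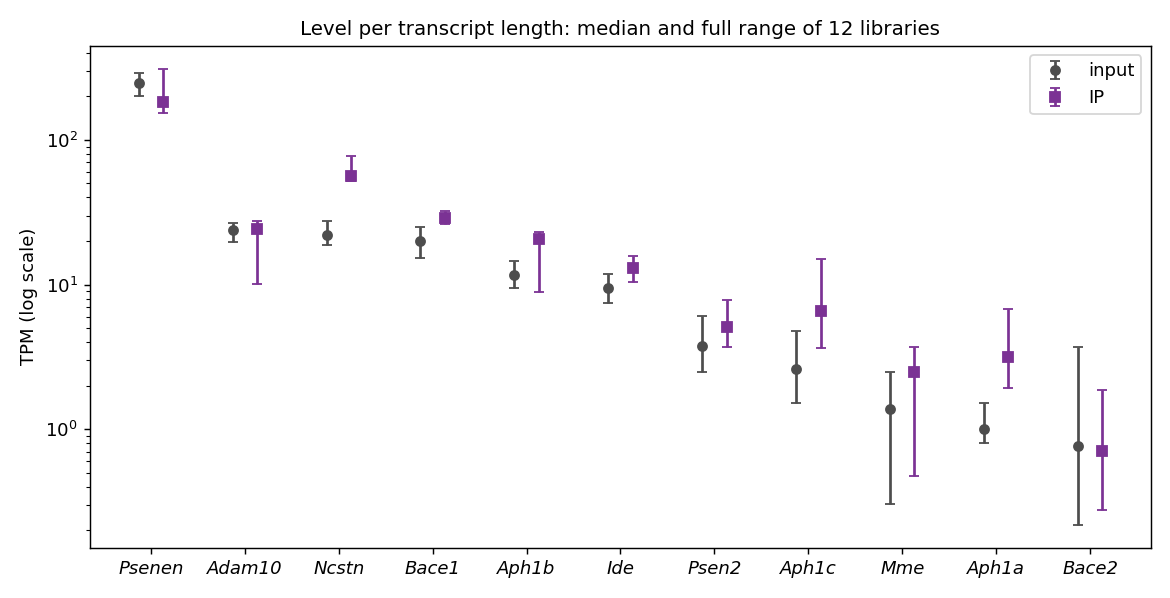
TPM on a log axis for the 10 genes and the copy Aph1c, ordered by input level. Markers show the median and bars the full range of 12 input (circles) or 12 IP (squares) libraries; Psenen lies at 201 to 292 TPM in the input, above every other gene, and Bace2 has the widest input range on the log axis, 0.218 to 3.68 TPM.

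Bace1 was the member with the clearest difference in expression. Scaled to library size (CPM after TMM scaling of the 12 inputs), its input level was 92.7, 85.5, 81.6 and 90.2 CPM in wild-type animals 1 to 4. Vehicle animals had 107, 113, 109 and 102 CPM, and MS1262 animals had 114, 107, 113 and 111 CPM. All 8 5xFAD values lay above all 4 wild-type values, and the vehicle and MS1262 values overlapped. Against wild-type, Bace1 was 1.27-fold higher in MS1262 mice (log2 0.35, SE 0.08, 95% CI 0.19 to 0.51, edgeR adjusted p = 0.0355 over all genes tested). In vehicle animals the difference was 1.23-fold (log2 0.30, SE 0.08, 95% CI 0.14 to 0.46) and did not pass with edgeR (adjusted p = 0.0685), whereas DESeq2 called it (adjusted p = 0.0182). Between MS1262 and vehicle the fold was 1.03 (95% CI of the fold 0.924 to 1.15, edgeR adjusted p = 0.938). Without vehicle animal 3, which stood apart, the vehicle difference of Bace1 was 0.28 in log2 (edgeR adjusted p = 0.157). Summed microglia markers were higher and summed inhibitory neuron markers lower in the same 8 animals, and their part in the result was not tested.

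The call for Bace1 in MS1262 mice was fragile. It was lost when any single animal was left out (edgeR adjusted p 0.0557 to 0.109 over the 8 omissions, log2 0.32 to 0.38), without the filter on low counts (adjusted p = 0.0783) and on the TPM scale (limma adjusted p = 0.339 on log2(TPM + 1), where the change was 0.26). Input TPM of Bace1 was 15.3 to 19.6 in wild-type mice, 18.3 to 21.5 in vehicle and 20.5 to 25.1 in MS1262 mice, so on that scale the vehicle values overlapped wild-type and the MS1262 values did not. The span of Bace1 (GRCm38, chromosome 9, 45838545 to 45862484) overlaps that of Rnf214 by 5716 bases, and whether counting used strand is not given in the sources used here. Rnf214 itself had a log2 difference of 0.07 (SE 0.11) for MS1262 and 0.06 (SE 0.11) for vehicle against wild-type.

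**Figure D2:**
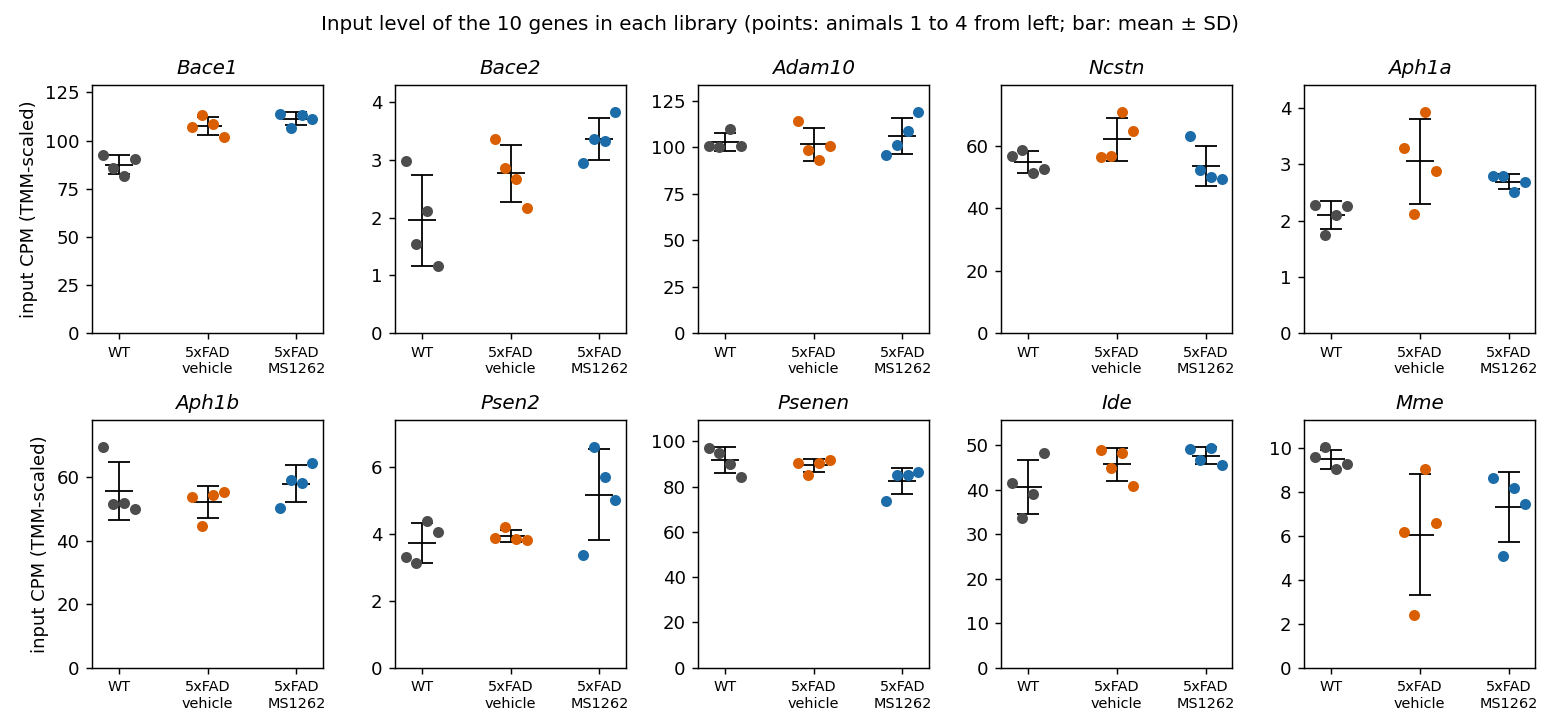
Input CPM (TMM-scaled, linear axes from 0) of the 10 genes in each animal, with animals 1 to 4 from left in each group and the mean ± SD as bars. Bace1 is at 81.6 to 92.7 CPM in wild-type mice and at 102 to 114 CPM in the 8 5xFAD animals, while Adam10 and Psenen overlap between groups and Mme spreads from 2.39 to 9.02 CPM in vehicle animals.

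Counted over the 10 genes, edgeR called 0 in vehicle against wild-type, beside 1.57% of all genes, 0 in MS1262 against vehicle, beside 0%, and 1 (Bace1) in MS1262 against wild-type, beside 1.3%. At an unadjusted p under 0.05 the numbers were 3, 0 and 3 of 10, beside 2263, 1003 and 2522 of all 17693 genes. DESeq2 called 1, 0 and 1 of 10, and it also called more genes than edgeR over the whole table against wild-type (numbers in the closing section). In MS1262 against vehicle, 0 of 17693 genes passed with edgeR or with DESeq2. The median log2 change of the 10 genes was 0.13, 0.06 and 0.14 in the 3 comparisons, beside medians over all genes of 0.01, −0.01 and 0.00. Groups of 4 did not overlap for 2 of 10 genes in vehicle against wild-type, where 7.07% of all genes did the same, for 0 in MS1262 against vehicle (3.4%), and for 3 in MS1262 against wild-type (10.1%). The comparisons share the wild-type or vehicle animals, so they are not independent of each other.

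Adam10, the other secretase that acts first on the precursor, had nearly equal input levels. Its values were 101, 100.4, 110.1 and 101 CPM in wild-type mice, 114, 98.6, 93.1 and 101 in vehicle, and 96.0, 101, 109 and 119 in MS1262 mice. The 3 groups overlapped throughout. The log2 difference was −0.02 (95% CI −0.21 to 0.18) for vehicle and 0.04 (−0.15 to 0.24) for MS1262 against wild-type, with edgeR adjusted p of 0.963 and 0.877. Both intervals lie below a log2 difference of 0.30, the estimate for Bace1 in vehicle animals. The interval of that Bace1 estimate, given above, overlaps both, and a difference between the genes was not tested.

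Bace2 was measured at a few CPM. Wild-type animals had 2.97, 1.55, 2.11 and 1.17 CPM, vehicle animals 3.37, 2.86, 2.67 and 2.16, and MS1262 animals 2.95, 3.36, 3.33 and 3.82. Wild-type animal 1 fell within the range of the 5xFAD animals. The estimate was 1.73-fold for MS1262 against wild-type (95% CI 1.15 to 2.60) with an unadjusted p of 0.0123 and an edgeR adjusted p of 0.199. It was 1.42-fold for vehicle (95% CI 0.942 to 2.14, edgeR adjusted p = 0.485). On the TPM scale, where its effective length varied between libraries, the ratio of group means of Bace2 was 4.19 for MS1262 to wild-type and 3.21 for MS1262 to vehicle, against 1.72 and 1.22 by CPM. Neither passed there (limma on log2(TPM + 1), adjusted p of 0.192 and 0.712). Bace2 had 48 to 148 input counts per library.

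Of the γ-secretase genes, none passed in any comparison between groups. Psenen, the small PEN-2 subunit, had 84.1 to 97.2 CPM in wild-type mice, 85.1 to 91.5 in vehicle and 73.7 to 86.3 in MS1262 mice, and MS1262 against wild-type gave 0.901-fold (95% CI 0.798 to 1.02, edgeR adjusted p = 0.431). Nicastrin RNA, from Ncstn, was at 56.9, 58.8, 51.3 and 52.5 CPM in wild-type mice, 56.3, 56.8, 70.8 and 64.9 in vehicle, and 63.2, 52.2, 50.2 and 49.4 in MS1262 mice. Vehicle animals 3 and 4 had the highest Ncstn values, and the fold of MS1262 to vehicle was 0.864 (95% CI 0.738 to 1.01, edgeR adjusted p = 0.863). Without vehicle animal 3 the log2 difference of Ncstn between MS1262 and vehicle was −0.14, against −0.21 with it. For Aph1b the log2 differences from wild-type were −0.10 in vehicle (95% CI −0.36 to 0.16) and 0.06 in MS1262 mice (−0.20 to 0.32).

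Aph1a and Psen2 were low. Aph1a was at 2.28, 1.74, 2.11 and 2.27 CPM in wild-type mice, 3.29, 2.11, 3.92 and 2.89 in vehicle, and 2.79, 2.79, 2.51 and 2.68 in MS1262 mice. The MS1262 values all lay above wild-type, whereas vehicle animal 2 did not. Neither difference passed: 1.46-fold for vehicle (95% CI 1.04 to 2.03, edgeR adjusted p = 0.319) and 1.28-fold for MS1262 (0.920 to 1.78, adjusted p = 0.506). Psen2, the presenilin in this set, had 3.12 to 4.39 CPM in wild-type mice, 3.81 to 4.22 in vehicle and 3.38 to 6.60 in MS1262 mice. For Psen2 the log2 difference of MS1262 from wild-type was 0.47 (95% CI 0.02 to 0.93, edgeR adjusted p = 0.326). The spans of several of these genes overlap a gene on the opposite strand. Aph1a and Car14 share 825 bases, Psenen and U2af1l4 288, and Psen2 and the non-coding Gm31728 7063. Whether reads of these neighbours entered the counts of Aph1a, Psenen or Psen2 was not tested.

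The amyloid-degrading enzymes went apart in their estimates and neither passed. Mme had 9.56, 10.0, 9.04 and 9.26 CPM in wild-type mice, 6.16, 2.39, 9.02 and 6.60 in vehicle, and 8.63, 5.06, 8.17 and 7.43 in MS1262 mice. All 5xFAD values of Mme were below all wild-type values, though vehicle animal 3 was just below the lowest of them and animal 2 of each 5xFAD group was the lowest. The fold was 0.640 in vehicle (95% CI 0.417 to 0.983, edgeR adjusted p = 0.366) and 0.775 in MS1262 mice (0.507 to 1.19, adjusted p = 0.610), and for vehicle the log2 estimate was −0.91 without vehicle animal 3 and −0.40 without vehicle animal 2. Summed inhibitory neuron markers were also lower in all 5xFAD animals, and their part in the Mme values was not tested. Ide was at 41.5, 33.6, 39.0 and 48.2 CPM in wild-type mice, 48.9, 45.0, 48.2 and 40.9 in vehicle, and 49.2, 46.7, 49.4 and 45.6 in MS1262 mice. The Ide groups overlapped, with folds against wild-type of 1.13 for vehicle (95% CI 0.958 to 1.33) and 1.17 for MS1262 (0.999 to 1.38, edgeR adjusted p = 0.355).

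Between the 2 5xFAD groups, which differ by MS1262, the intervals were narrow for the abundant members and wide for the scarce ones. The 95% CI of the fold was 0.913 to 1.19 for Adam10, 0.816 to 1.04 for Psenen, 0.928 to 1.33 for Aph1b and 0.887 to 1.23 for Ide. It was 0.634 to 1.22 for Aph1a, 0.956 to 1.80 for Psen2, 0.811 to 1.82 for Bace2 and 0.789 to 1.86 for Mme, all by CPM; by mean TPM the Mme ratio of MS1262 to vehicle was 1.92, against 1.21 by mean CPM. No member passed in any of 16 alternative settings of the analysis, which included the omission of each animal.

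**Figure D3:**
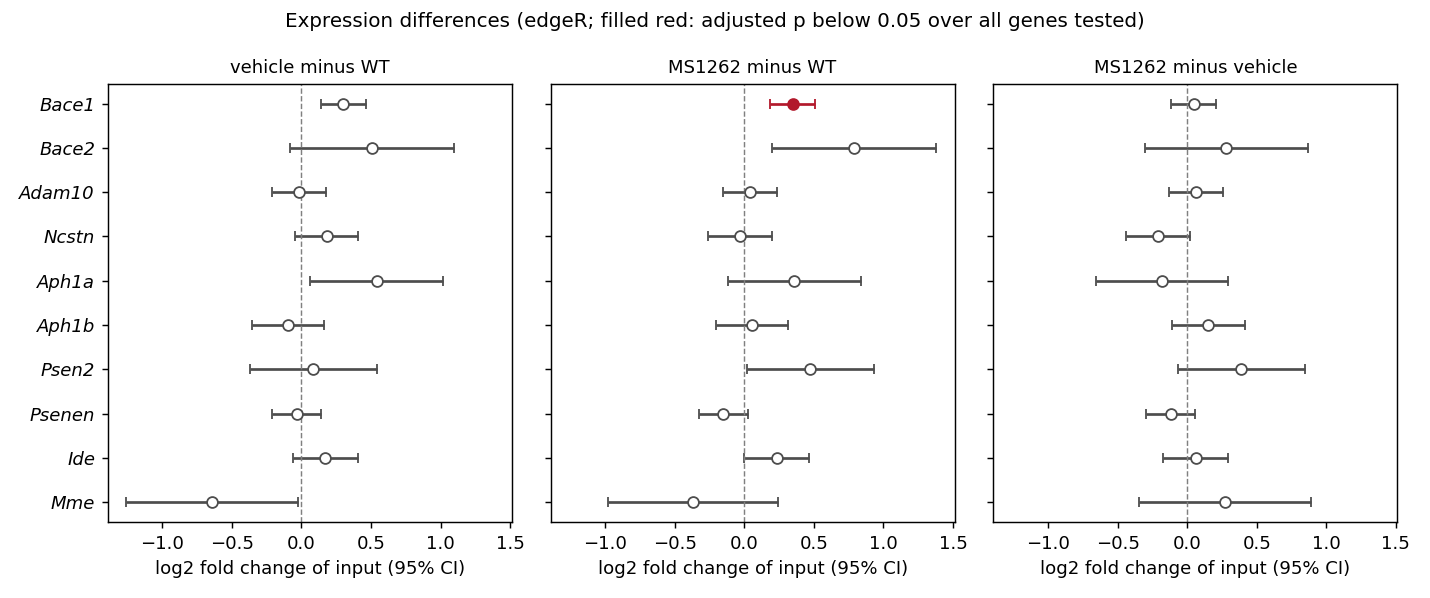
Log2 fold change of input (edgeR) with its 95% confidence interval for the 10 genes in vehicle minus wild-type, MS1262 minus wild-type and MS1262 minus vehicle. The 1 filled point is Bace1 in MS1262 minus wild-type at 0.35; the widest intervals belong to Mme and Bace2.

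The genes around these enzymes were read from 9 lists of substrates, partners and regulators. Of 103 tested genes on them, 2 passed in expression in vehicle against wild-type (1.94%, beside 1.57% of all genes), 0 in MS1262 against vehicle and 1 in MS1262 against wild-type (0.971%, beside 1.3%), shares near those of the whole table. None of the 103 passed in m6A enrichment between groups. Ctsb, the lysosomal protease cathepsin B, rose from 752, 900.0, 740.4 and 761 CPM in wild-type to 1232, 1447, 949.7 and 1367 in vehicle (log2 0.66, SE 0.12, edgeR adjusted p = 0.0155) and 1170.5, 1305, 1038 and 1190.4 in MS1262 mice (0.58, SE 0.12, adjusted p = 0.0348). It was 1 of 15 tested genes in the list of other amyloid-degrading proteases, and is also abundant in microglia, whose markers were higher in the same animals; their part in the result was not tested. Ifitm3, an interferon-induced protein that binds γ-secretase, rose in vehicle animals (log2 0.81, SE 0.18, edgeR adjusted p = 0.0383), as 1 of 8 tested genes in the list of the γ-secretase paralogue and regulators. Microglia markers were higher in the same vehicle animals, and 10 markers of meninges and fibroblasts had a median log2 difference of 0.66 there with 0 of 10 passing, their summed input CPM being 412 to 634 in wild-type and 433 to 1123 in vehicle animals; the part of either in the Ifitm3 result was not tested. The call for Ifitm3 was lost on 7 of 8 omissions of an animal (log2 0.70 to 0.88) and held without vehicle animal 4 (0.85). In MS1262 animals its difference was 0.56 (edgeR adjusted p = 0.159), and it passed there without MS1262 animal 1 (0.70, adjusted p = 0.0481). For Ctsb the vehicle call was lost without vehicle animal 2 (0.57) and without wild-type animals 1, 3 or 4 (0.63 to 0.64), and the MS1262 call without any of the 4 MS1262 animals or wild-type animals 1, 3 or 4 (0.53 to 0.64).

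The substrates showed no called change. App, the precursor itself, was at 543 to 686 CPM in wild-type mice, 482 to 593 in vehicle and 576 to 657 in MS1262 mice, with log2 differences of −0.10 (SE 0.10) for vehicle against wild-type and 0.17 (SE 0.10) for MS1262 against vehicle; whether reads of the human transgene entered these App values was not tested. The relatives Aplp1 and Aplp2 differed by −0.16 (SE 0.09) in vehicle and 0.15 (SE 0.11) in MS1262 against wild-type, respectively. In the list of BACE1 substrates, 0 of 14 passed; the smallest p were those of Nrg1, the neuregulin that guides myelination (log2 −0.57 in MS1262 against wild-type, edgeR adjusted p = 0.129), and Sez6l (0.35, adjusted p = 0.209). Among 18 tested substrates of γ-secretase and ADAM10 0 passed, and among 6 Notch target genes, which γ-secretase activity can drive, 0 passed. Nrarp had the largest Notch target estimate, −1.40 (SE 0.42, edgeR adjusted p = 0.141) in vehicle against wild-type.

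For regulators of the secretases, the counts stand beside the 1.57% and 1.3% of all genes called against wild-type. For BACE1 trafficking, 0 of 18 passed, with Gga2 at 0.37 (adjusted p = 0.259) in vehicle and Bin1 at 0.40 (adjusted p = 0.173) in MS1262 against wild-type by edgeR. For Adam10 maturation and its tetraspanins, 0 of 13 passed; Timp1, an inhibitor of metalloproteinases, had 2.49 (SE 0.67, edgeR adjusted p = 0.0963) in MS1262 against wild-type and Timp3 had 0.51 (SE 0.15, adjusted p = 0.119) in vehicle. Of 8 other sheddases 0 passed. In MS1262 against vehicle, list medians ran from −0.16 for the other sheddases to 0.15 for the substrates of γ-secretase and ADAM10.

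For 4 members, the genes with the most similar input profile over the 12 inputs were taken as a description, among 8490 genes. These points share libraries and groups, and no test is attached. For Bace1 they were Iyd (Pearson r 0.96), Sema4d (0.95) and Rere (0.94). The profile of Adam10 was closest to Osbpl8 (0.89), Ppm1b (0.87) and Cpe (0.86). For Ide they were Erbin (0.96), Cpne3 (0.94) and Map3k2 (0.93), and for Mme they were Fastkd5 (0.90), Smim20 (0.88) and Ipp (0.85).

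The IP was then compared with the input of the same animal, in a joint scaling of all 24 libraries, under which the median of all genes lay at 0.00 on the log2 scale. Of the 10 genes 6 differed over all groups: 2 were higher in the IP, beside 28.2% of all genes, and 4 were lower, beside 27.7%. Since 5158 and 5069 of 18300 genes were called in the respective directions, counts of this size are common in the table.

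Ncstn was enriched by the antibody. IP minus input in log2 CPM was 0.79, 0.59, 1.05 and 0.94 in wild-type mice, 0.74, 0.70, 0.52 and 0.97 in vehicle, and 0.50, 0.81, 0.75 and 0.83 in MS1262 mice. All 12 values were above 0 and the groups overlapped. The IP held 1.70-fold the input level (log2 0.76, SE 0.06, edgeR adjusted p = 8.21e-09). Aph1a, the APH-1 scaffold with the lower estimated level, was also 1.70-fold higher (log2 0.77, SE 0.11, edgeR adjusted p = 1.89e-05). It was above 0 in 12 of 12 animals with a range from 0.09 to 1.32.

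Psenen and Adam10 were depleted from the IP. For Psenen the log2 differences were −1.13, −1.03, −1.16 and −1.01 in wild-type mice, −1.12, −1.19, −0.98 and −0.54 in vehicle, and −0.61, −0.998, −1.26 and −0.98 in MS1262 mice, so its IP level was 0.500-fold of the input (log2 −1.001, SE 0.07, edgeR adjusted p = 1.80e-09). Adam10 had −0.62, −0.57, −0.57 and −0.62 in wild-type mice, −0.67, −0.50, −0.47 and −1.90 in vehicle, and −0.62, −0.57, −0.58 and −0.69 in MS1262 mice. Apart from vehicle animal 4, whose IP was the shallow library with 140 counts of Adam10, the 11 values lay within −0.69 to −0.47. Over all groups Adam10 was at 0.623-fold (log2 −0.68, SE 0.09, edgeR adjusted p = 5.19e-06), and without vehicle animal 4 the log2 value was −0.59.

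The substrates and enzymes nearest to them spread to both sides. App (log2 −0.42, SE 0.04) and Aplp2 (−0.42, SE 0.04) were lower in the IP in 12 of 12 animals, while Aplp1 (0.08, SE 0.05) did not pass. Among the sheddases Adam17 was higher (1.01, SE 0.14) and Adam9 lower (−0.41, SE 0.08), and Aph1c (0.51, SE 0.08) and Ece1, an endothelin-converting enzyme that also degrades amyloid-β (0.27, SE 0.09), were higher. Of 15 tested other amyloid-degrading proteases 9 were higher and 2 lower, and of 18 substrates of γ-secretase and ADAM10 6 were higher and 9 lower. Over all genes, 28.2% were called higher and 27.7% lower.

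Direction in the IP depended on the scale for the smaller differences. On the TPM scale, which also takes in transcript length, the median of all genes moved to 0.36 with a pseudocount of 1 and to 0.55 with 0.1, and with TMM factors computed within inputs and within IPs it moved to 0.25. Relative to these medians, Ncstn stayed above by 0.76 to 1.02 and Aph1a by 0.71 to 1.01, and Psenen stayed below by −1.01 to −0.74 and Adam10 by −0.69 to −0.42, over all scalings. Adam10 itself was at −0.05 and no longer passed on the TPM scale. Bace1 (log2 −0.17, SE 0.06, edgeR adjusted p = 0.0186) and Ide (−0.27, SE 0.07, adjusted p = 0.00239) were lower in the IP by CPM and turned to 0.52 and 0.42 on log2(TPM + 1). Bace2 (−0.14), Aph1b (0.09), Psen2 (−0.08) and Mme (−0.18) did not pass by CPM, and of these Aph1b, Psen2 and Mme were higher on the TPM scale (0.66, 0.37 and 0.49).

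Within single groups, 4 of 10 genes passed in wild-type (33% of all genes), 6 in vehicle (39.7%) and 4 in MS1262 mice (38.1%). Ncstn, Aph1a, Psenen and Adam10 passed in each group, and Bace1 (−0.32) and Ide (−0.52) passed in vehicle animals. Vehicle animal 4, the shallow IP library, was lowest there, at −0.74 for Bace1 and −1.20 for Ide. The other vehicle animals had −0.25 to −0.15 for Bace1 and −0.49 to −0.23 for Ide. Bace1 was also below 0 in all 4 MS1262 animals (−0.29 to −0.09), and Ide was below 0 in 12 of 12 animals. Aph1a in vehicle animals had an edgeR adjusted p of 0.046 that was lost without vehicle animal 1, 2 or 4 (log2 0.59, 0.35 and 0.48).

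**Figure D4:**
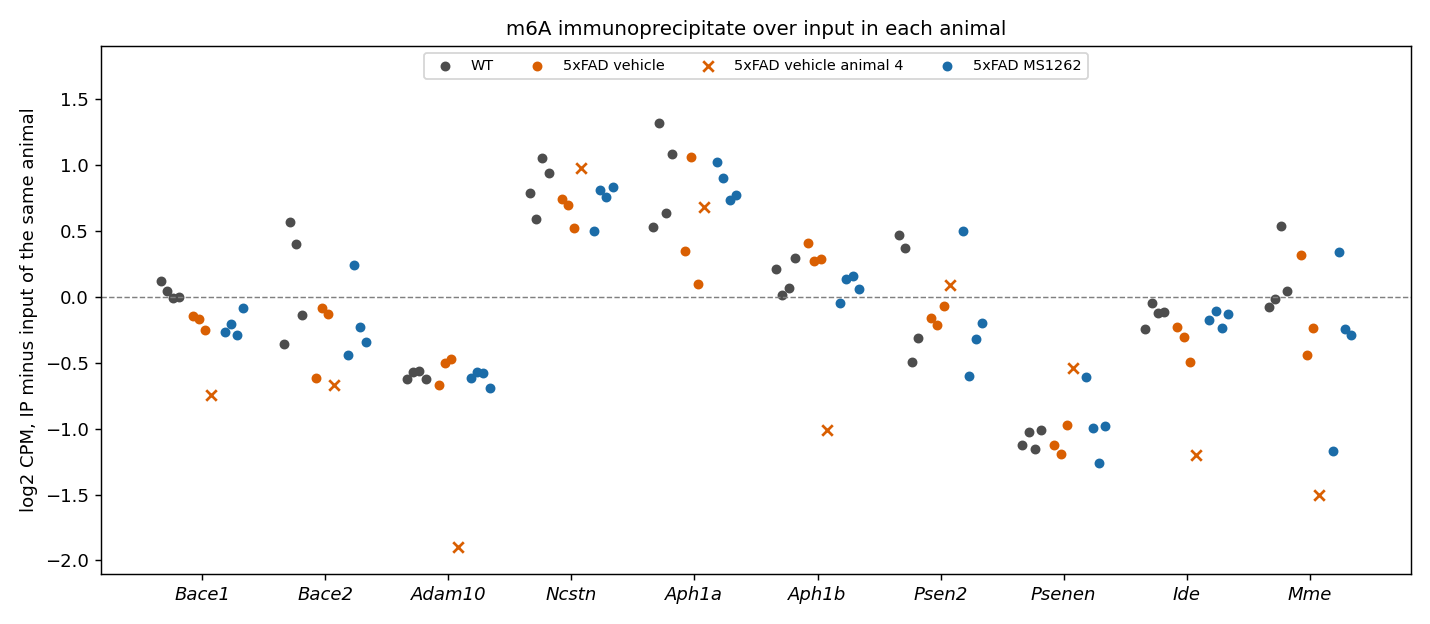
Log2 CPM of IP minus input of the same animal for the 10 genes, with 1 point per animal and vehicle animal 4 drawn as a cross. Ncstn and Aph1a are above 0 and Psenen and Adam10 below 0 in every animal; vehicle animal 4 is the lowest point for Adam10 (−1.90), Aph1b (−1.01), Ide (−1.20), Bace1 (−0.74), Bace2 (−0.67) and Mme (−1.50).

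The difference of enrichment between groups is what would show a change in m6A of these transcripts, and 0 of 10 genes passed with edgeR in any of the 3 comparisons. The shares of all genes called were 0.989% for vehicle against wild-type, 0% for MS1262 against vehicle and 1.24% for MS1262 against wild-type. At an unadjusted p under 0.05 the members numbered 2, 1 and 0 of 10, beside 2140, 434 and 2034 of all 18300 genes. DESeq2 also called 0 of 10 in each comparison. The median over the 10 genes was −0.30, 0.07 and −0.09, beside −0.06, 0.05 and 0.00 over all genes. On this measure the groups did not overlap for 1 of 10 genes in vehicle against wild-type (7.58% of all genes), 0 in MS1262 against vehicle (2.22%) and 1 in MS1262 against wild-type (10.5%), each time Bace1.

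Bace1 IP minus input was 0.12, 0.05, −0.01 and −0.01 in wild-type mice, −0.15, −0.17, −0.25 and −0.74 in vehicle, and −0.26, −0.21, −0.29 and −0.09 in MS1262 mice. All 8 5xFAD values were below all 4 wild-type values. The input of Bace1 was higher in those 8 animals, while in the IP its levels overlapped, at 87.8 to 109.9 CPM in wild-type mice, 65.9 to 109 in vehicle and 100.2 to 114 in MS1262 mice (IP values scaled with all 24 libraries). The difference in enrichment was −0.36 (SE 0.14, unadjusted p = 0.019, edgeR adjusted p = 0.31) for vehicle and −0.25 (SE 0.14, adjusted p = 0.551) for MS1262 against wild-type. Leaving out vehicle animal 4 gave −0.23 (edgeR adjusted p = 0.203) for vehicle. Rnf214, whose span overlaps that of Bace1, had IP minus input of −0.04 to 0.08 in wild-type mice. It had −0.38 to 0.03 in vehicle and −0.19 to −0.05 in MS1262 mice, so its MS1262 values also lay below wild-type. The part of reads from Rnf214 in the Bace1 values was not tested.

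The γ-secretase genes gave small differences in enrichment with wide intervals. For Ncstn the difference was −0.11 (95% CI −0.41 to 0.19) in vehicle and −0.12 (−0.41 to 0.18) in MS1262 against wild-type. Aph1a had −0.39 (−0.98 to 0.20) and −0.05 (−0.63 to 0.52), and Psen2 had −0.13 (−0.75 to 0.49) and −0.19 (−0.79 to 0.42). The scarcest members were the least determined, with −0.48 (−1.15 to 0.20) for Bace2 and −0.42 (−1.13 to 0.28) for Mme in vehicle against wild-type. Between MS1262 and vehicle the difference was 0.11 (−0.18 to 0.40) for Bace1, −0.01 (−0.31 to 0.29) for Ncstn, 0.22 (−0.24 to 0.69) for Adam10 and 0.00 (−0.33 to 0.34) for Psenen. Ide had 0.35 there (unadjusted p = 0.0482, edgeR adjusted p = 1), and 0.18 without vehicle animal 4.

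Vehicle animal 4 also set the sign of other vehicle estimates. Against wild-type, the enrichment difference of Adam10 was −0.24 (SE 0.22) with that animal and 0.05 without it, that of Aph1b −0.11 (SE 0.22) and 0.18, and that of Psenen 0.11 (SE 0.16) and −0.02; none passed either way. Ide, with −0.13 ± 0.08 in wild-type mice, −0.56 ± 0.44 in vehicle and −0.16 ± 0.06 in MS1262 mice (SD, n = 4), differed by −0.38 (SE 0.17, edgeR adjusted p = 0.377) in vehicle against wild-type, or −0.20 without vehicle animal 4. Among the relatives of the precursor, Aplp1 IP minus input was −0.28 to −0.04 in wild-type mice, 0.02 to 0.44 in vehicle and 0.17 to 0.27 in MS1262 mice, without overlap with wild-type, and the differences of 0.32 (SE 0.12, edgeR adjusted p = 0.311) and 0.38 (SE 0.12, adjusted p = 0.185) did not pass. The number of genes called over the whole table in that comparison was 181 with it and 408 without it.

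Deposited peaks of IP over input, called in each animal against its own input, fell within the spans of 2 of the 10 genes, Ncstn and Aph1b, in at least 1 animal of every group, as they did for 17.2% of 16877 tested genes with a position. No peak lay within Bace1, Bace2, Adam10, Aph1a, Psen2, Psenen, Ide, Mme or the copy Aph1c. Fold enrichments and q-values of peaks are the authors' own, called at a permissive q threshold of 0.5, and a list without a peak does not show that the transcript lacks m6A. Coordinates are of GRCm38, the build of the peak files, and gene spans are those of RefSeq on GRCm38.p6; exons and untranslated regions were not used here.

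Ncstn lies on the minus strand at chr1:172066013-172082789. It held 64 peak summits in 10 of 12 animals, 4 wild-type, 3 vehicle and 3 MS1262, and those of all 10 animals included a peak with −log10 q of at least 2. Summit numbers were 4, 7, 7 and 8 in wild-type mice, 6, 0, 2 and 6 in vehicle, and 0, 3, 10 and 11 in MS1262 mice, so vehicle animal 2 and MS1262 animal 1 had none. Merged over animals, the peaks formed 10 regions between 129 and 9627 bases from the annotated gene end. The region found in most animals, 8 of 12, was the one nearest to the end, chr1:172066142-172066860, where the highest fold in each animal was 1.31 to 2.06. The highest fold, 4.72, was in chr1:172072605-172073073, found in 6 animals. Copa, which is transcribed from the opposite strand, overlaps the Ncstn span by 261 bases.

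Aph1b, on the minus strand at chr9:66775202-66797345, had 42 summits in 11 of 12 animals. The exception was vehicle animal 4, the shallow IP library. All 11 animals shared the merged region chr9:66777261-66779348, which lies 2059 to 4146 bases from the annotated gene end. The highest fold in each of the 11 animals there was 1.63 to 3.39, and the lowest of all 42 Aph1b summits was 1.30. In 9 of the 11 animals a peak had −log10 q of at least 2. The gene was not enriched as a whole (IP minus input 0.09, SE 0.09), and without vehicle animal 4 its log2 value was 0.18 (edgeR adjusted p = 4.76e-04), so peak and whole-gene measures gave different rankings of Aph1b and Aph1a.

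**Figure D5:**
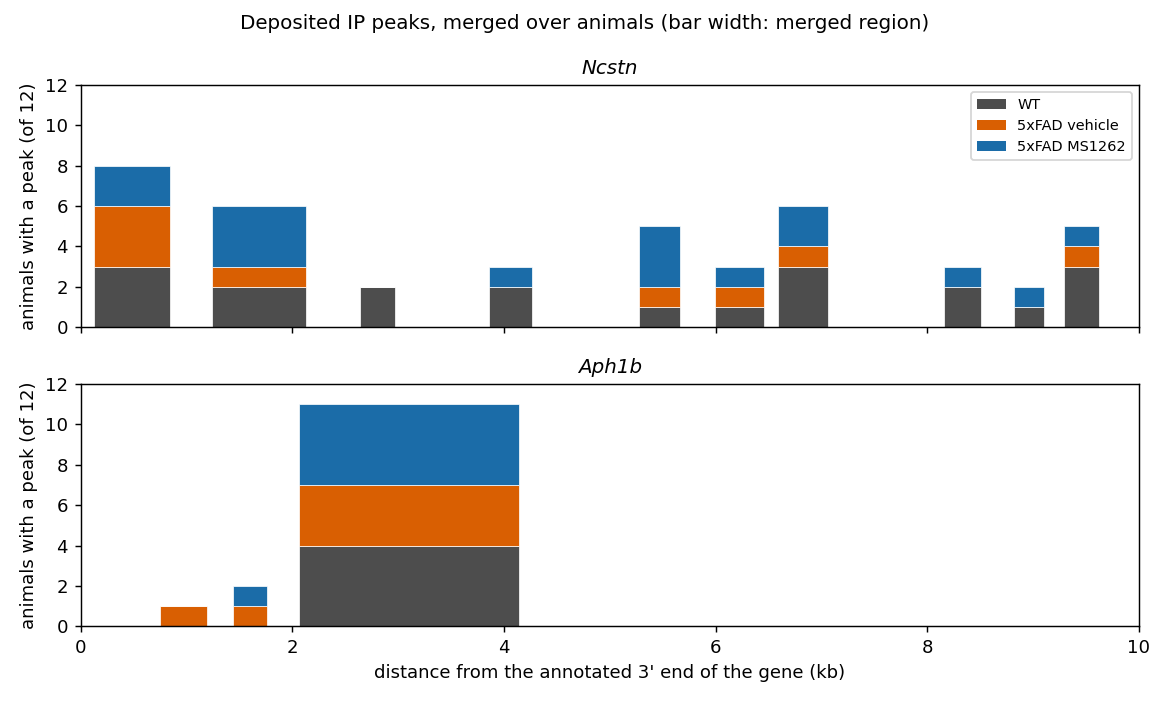
Number of animals (of 12) with a deposited peak in each merged region of Ncstn and Aph1b, by distance from the annotated gene end in kb; bar width is the merged region and colours are groups. Ncstn regions are spread over 129 to 9627 bases in up to 8 animals, and Aph1b has 1 region shared by 11 animals at 2059 to 4146 bases.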

How the data were processed

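Estimated counts and TPM per gene were deposited by the authors for 24 MeRIP-seq libraries, 1 input and 1 IP per animal. Per the submitters' processing notes the tools included STAR 2.7.6a and Salmon 1.4.0, besides Trimmomatic 0.32, bcl2fastq 2.17.1.14, MACS2 2.1.2 and SAMtools 1.10, and the builds GRCm38 and mm10. Per the labels' protocols 10% of 150 ng mRNA served as input. No molecular identifiers are named, and whether amplified copies are part of the estimated counts was not tested. Peaks, with the fold enrichment (a ratio), signal (pileup) and −log10 q deposited by the authors, were called per animal with a genome size of 1e+08 and an extension of 200, per the file headers.

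Estimated counts were rounded and fitted with edgeR 4.0.16 (R 4.3.3; TMM, filterByExpr with a minimum count of 10, quasi-likelihood F test, Benjamini-Hochberg over all genes, threshold 0.05): the 12 inputs by group, and all 24 libraries with the animal as a block and an IP effect per group. Log2 CPM used a prior count of 0.5. The animal block pairs input with IP: residuals of the same animal correlated at 0.15 to 0.35, and each of 12 inputs correlated best with its own IP. Confidence intervals are 95%. The labels call the animals biological replicates, and p-values measure the spread between them. Scripts were tested on simulated data. The alternatives were DESeq2 1.42.0, limma 3.58.1 on log2(TPM + 1) and log2(TPM + 0.1), other scalings, no filter, 2 groups only, blocks added or dropped, and the omission of each animal. The omission of vehicle animals 3 and 4 together was added after seeing the data.

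The members, gene lists and tests were chosen with earlier results of these data known. All members were named, with App, Aplp1, Aplp2, Aph1c, Adam17, Adam9 and Ece1; from each list the genes that passed, up to 4 per comparison, or else the 2 with the smallest p, could be named; for 4 members the 3 most similar inputs at a mean log2 CPM of at least 3. Rnf214 was added for its overlap. Peaks counted from 1 base of overlap with a gene span.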

Additional observations from a re-analysis of the deposited data

Results flagged for a closer look

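Of 90 sets of 4 values checked (10 genes, 3 groups; input CPM, IP CPM and log2 IP minus input), 9 held a value farther from the rest than Dixon's 95% limit allows. That limit is set to flag about 1 in 20 independent sets of normal values. The sets here are not independent, because log2 IP minus input is built from the same libraries as the other measures. The number flagged therefore cannot be judged against that rate. Of these, 3 were of vehicle animal 4, whose IP library held 3984480 counts: Adam10 at 29.3 CPM in the IP (the others 73.1 to 77.8) and −1.90 in log2 IP minus input (−0.67 to −0.47), and Aph1b at −1.01 (0.27 to 0.41). In the IP, Aph1b of MS1262 animal 1 was at 52.9 CPM (70.2 to 73.3). In the input, Adam10 of wild-type animal 3 was at 110.1 CPM (100.4 to 101), Aph1b of wild-type animal 1 at 69.4 (49.9 to 51.9) and of vehicle animal 2 at 44.6 (53.9 to 55.4). Psenen was at 85.1 CPM in vehicle animal 2 (90.6 to 91.5) and at 73.7 in MS1262 animal 1 (84.9 to 86.3). The part of depth or of the animals in these values was not tested.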

How the results depend on the processing

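For named genes, 2513 values under alternatives were compared with the reported ones: 2391 kept their side of the threshold and, where called, their direction, 71 lost a call, 24 gained one and 27 reversed; 172 sign changes of values called in neither fit are not counted as reversals. Of the members, DESeq2 called 1 in vehicle against wild-type. In MS1262 against wild-type the call of Bace1 was lost, leaving 0 members called, without the filter, on both TPM scales, with the replicate number as a block, and on each omission of an animal. That replicate block is not a pairing: of 12 same-numbered pairs 0 correlated above 0.1 (−0.09 to 0.05); it gave 134 calls over all genes in vehicle against wild-type. Without the animal block (no replicate block), 0 and 1 genes passed for m6A in vehicle and MS1262 against wild-type.

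Counts over all genes moved as follows. Without the filter, m6A calls were 489, 42 and 502 (vehicle against wild-type, MS1262 against vehicle, MS1262 against wild-type). With 2 groups only, vehicle against wild-type gave 118 expression calls. DESeq2 gave 610 and 635 expression calls against wild-type and 503, 2 and 515 m6A calls. Limma on log2(TPM + 1) gave 124 expression calls for MS1262 against wild-type, and 33 and 3 m6A calls for vehicle and MS1262; with 0.1 these were 145, 0 and 0. Over omissions of 1 animal, expression calls were 108 to 297 (vehicle against wild-type), 0 to 2 (MS1262 against vehicle) and 105 to 174 (MS1262 against wild-type), with 0 to 0 members in the last, and m6A calls were 33 to 408 (vehicle) and 58 to 180 (MS1262) against wild-type. Without vehicle animals 3 and 4, 2 expression calls appeared in MS1262 against vehicle and m6A calls in vehicle against wild-type were 343. The cause was not tested.

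Reversals were changes of sign, all in IP against input, and came with a change of scale. The median of all genes also rose on these scales, as given above. A reversed sign is therefore not in itself a changed position relative to that median. With TMM within fractions Bace1 was 0.0824. On log2(TPM + 1), over all groups, Bace1 was 0.52, Psen2 0.37, Ide 0.42, Mme 0.49, App 0.0656, Aplp2 0.12 and Adam9 0.17; Ide was 0.43 in wild-type; Bace1 0.46, Ide 0.34 and Mme 0.71 in vehicle; Bace1 0.42 and Ide 0.48 in MS1262 animals. With a pseudocount of 0.1 the same values were 0.54, 0.45, 0.45, 0.75, 0.0658, 0.12 and 0.20; 0.47; 0.48, 0.37 and 1.16; 0.43 and 0.52. Counts of members with peaks stayed at 2 under stricter q, greater overlap and all omissions. Bace2, Aph1a, Psen2 and Mme had at most 577 counts in any library, and the part of depth in their wide intervals was not tested.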
